A study of Mus musculus with 16 samples.

Results

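The genes described here encode the subunits of the proteasome, the barrel-shaped protease that degrades proteins tagged with ubiquitin. They were taken by symbol from the mouse annotation: protein-coding genes whose name starts with Psma, Psmb, Psmc or Psmd and a digit, with 1 gene left out by the selection rule, and with at least 160 fragments summed over 16 libraries. The rule found 39 genes, of which 38 had the minimum, among 55471 gene identifiers in all and 16306 identifiers with that minimum. Psmb11, the thymic form of a catalytic subunit, was counted 10 times in all and was left out. Of the 38, 17 belong to the core particle, 17 to the regulatory particle, and 3 (Psmd5, Psmd9, Psmd10) are chaperones that help build the regulatory particle's base. The last, Psmc3ip, is a meiotic recombination factor whose symbol matches the rule, but it is no subunit.

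RNA was measured by sequencing of pieces of frozen mouse liver, 4 livers in each of 4 groups. PAM II and PAM I are antibiotic-exposed groups of mice, 102 weeks old. The series title places antibiotics in early life, but the sample labels give no time of exposure and do not spell out PAM. The aged controls were 102 weeks old as well and had no antibiotics, and the young mice were 12 weeks old and had no antibiotics either. They also name no antibiotic, dose, strain, sex, litter or cage, and replicate numbers below are only names, so no liver of one group is paired with one of another. One free-text label of the young samples speaks of aged mice, against their title, age and group, which were followed. P-values set the difference between group means against the spread among samples within groups, estimated from these 16 samples unless a fit leaves some out.

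The proteasome is built in layers. The core particle is a stack of rings, with the alpha subunits (Psma genes) outside and the beta subunits (Psmb genes) inside, and its cutting sites lie on Psmb5, Psmb6 and Psmb7. The regulatory particle caps the core: its base holds a ring of ATPases (Psmc genes) that unfolds substrates and the scaffolds Psmd1 and Psmd2, and its lid removes ubiquitin through Psmd14. Interferon-gamma and immune cells bring in other catalytic forms, with Psmb9 in place of Psmb6 and Psmb10 in place of Psmb7. In liver cells the transcription factor Nfe2l1 is known to raise subunit genes together when proteasome activity is short.

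The promoters of the members are shown first, because they differ between the particles in a way that the choice of genes did not use. A window of 250 bases before to 50 bases after the start of a transcript was on hand for 31 of the 38 genes (RefSeq, build GRCm38.p6). There was none in the table for Psma8, Psmb1, Psmb2, Psmb7, Psmc3, Psmd3 and Psmd7. The letters CCGGAAG, the binding motif of ETS-family factors, were searched on both strands. A gene was counted if at least 1 of its windows held a match, so genes with several windows had more chances. Matches were found for 9 of 14 regulatory particle genes (64.3%), 1 of 13 core particle genes (7.69%) and 9.93% of 27025 genes. The 27-base stretches below are read along each gene's strand, with the match in capitals, so that CTTCCGG is a match on the opposite strand. The only core gene comes last, and Psmc2 has 2 matches near 2 annotated starts.
Psmc1 (chr12:100110164-100110190, plus strand): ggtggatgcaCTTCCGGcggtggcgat
Psmc2 (chr5:21785181-21785207, plus strand): ccagtgagcaCTTCCGGgatggggctc
Psmc2 (chr5:21786713-21786739, plus strand): cgcggagctaCTTCCGGtggggaagag
Psmc6 (chr14:45329714-45329740, plus strand): ggcgggccagCCGGAAGgggcggagcc
Psmd11 (chr11:80428594-80428620, plus strand): gagggcgggtCTTCCGGgtgtgtgttt
Psmd12 (chr11:107479501-107479527, plus strand): gagcgggcgaCTTCCGGtgcgagtgac
Psmd13 (chr7:140882378-140882404, plus strand): gcccgcggtgCCGGAAGtgagcgagca
Psmd2 (chr16:20651616-20651642, plus strand): ccgcagggcgCTTCCGGtctggaggac
Psmd4 (chr3:95042723-95042749, minus strand): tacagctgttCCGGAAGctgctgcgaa
Psmd6 (chr14:14120974-14121000, minus strand): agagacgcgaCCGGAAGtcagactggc
Psma6 (chr12:55398683-55398709, plus strand): gagccaccacCCGGAAGcccgcggacc

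In 7 of these 11 stretches the match began within 50 bases upstream of the transcript start, the closest being that of Psmd13 at 6 bases. Counted per gene in the same way, the GC box GGGCGG was found for 71.4% of the regulatory particle genes, 46.2% of the core genes and 38.2% of all genes with a window. The CCAAT box was found for 28.6% of the regulatory particle genes, 53.8% of the core genes and 41.1% of all genes. The core of the antioxidant response element is TGACNNNGC, which is also the core that Nfe2l1 binds. It was found for 16.1% of the members with a window (Psmb5, Psmb6, Psmc6, Psmd12 and Psmd9) and 14% of all genes. The interferon-stimulated element is GAAA and GAAA with any 2 bases between them. It was found for 3 of 31 members (Psmb3, Psmd4, Psmd9), which is 9.68% beside 3.99% of all genes. These are matches of letters, and no binding was measured.

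Whole windows are given for 3 genes to which the results return: Psmd9, the member that differed between aged and young livers; Psmb5, the member of smallest p after PAM I; and Psmb9, an immune form with 1 liver far above the rest. Capitals mark matches to any of the motifs above other than the GC box. In Psmd9 they are, in order, the interferon-stimulated element and the antioxidant element core; in Psmb5 the antioxidant element core; and in Psmb9 a CCAAT box read on the opposite strand.
Psmd9 (chr5:123227940-123228239, plus strand): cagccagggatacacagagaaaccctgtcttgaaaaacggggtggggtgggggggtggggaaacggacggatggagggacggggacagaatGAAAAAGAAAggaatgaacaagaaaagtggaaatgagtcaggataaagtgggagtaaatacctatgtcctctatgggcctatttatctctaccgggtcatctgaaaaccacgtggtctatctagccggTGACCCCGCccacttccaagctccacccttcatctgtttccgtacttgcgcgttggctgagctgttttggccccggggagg
Psmb5 (chr14:54617946-54618245, minus strand): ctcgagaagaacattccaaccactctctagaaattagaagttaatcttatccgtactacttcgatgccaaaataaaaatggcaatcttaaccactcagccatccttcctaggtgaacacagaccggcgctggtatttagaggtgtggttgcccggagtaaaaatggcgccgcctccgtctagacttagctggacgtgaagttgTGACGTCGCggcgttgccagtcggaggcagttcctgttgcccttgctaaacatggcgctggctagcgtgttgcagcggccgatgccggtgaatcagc
Psmb9 (chr17:34187281-34187580, minus strand): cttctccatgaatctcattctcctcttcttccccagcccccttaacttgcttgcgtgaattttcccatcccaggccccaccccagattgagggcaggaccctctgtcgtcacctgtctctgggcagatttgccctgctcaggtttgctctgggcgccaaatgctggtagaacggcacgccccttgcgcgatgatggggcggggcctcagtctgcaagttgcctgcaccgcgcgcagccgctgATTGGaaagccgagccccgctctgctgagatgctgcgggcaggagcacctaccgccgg

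The libraries held 41233838 to 52090914 assigned fragments in PAM II, 44532527 to 48706530 in PAM I, 39856490 to 47042924 in aged controls and 36968993 to 42733282 in young livers. All 38 members passed the filter on low counts, and 17046 genes were tested in all. Hepatocyte genes were high in every library, with albumin (Alb) between 37419 and 92102 CPM (counts brought to a common library total). The lowest albumin was that of PAM I 3, and the next lowest liver had 55816 CPM. The mean log2 CPM of 8 hepatocyte genes was 12 in PAM I 3, and 11.7 to 12.6 over the 16 livers. Young replicate 1 stood apart, with 13.9% of its fragments on the mitochondrial chromosome and the fewest genes detected, 20002. Aged control 4 had the highest level of the leukocyte gene Ptprc among the 16 livers, 28.28 CPM. Its mean log2 CPM of 8 leukocyte genes was 5.01, below the 5.24 of PAM II 1. In pieces of whole liver, fewer cells of a type and less RNA per cell cannot be told apart.

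Levels per length differed between the subunits. Levels in TPM (counts divided by summed exon length and brought to a common total) over the 16 livers spanned 6.853-fold among the 31 ring and regulatory particle genes. Psmb5, the chymotrypsin-like catalytic subunit, was highest at a mean of 189.6 TPM ± 26.1 (SD, n = 16), and Psmd1, the largest scaffold of the base, was lowest at 27.67 TPM ± 4.72 (SD, n = 16). Within the alpha ring the means ran from 39.82 TPM for Psma3 to 132.5 TPM for Psma6, and within the beta ring from 57.03 TPM for Psmb1 to 189.6 TPM for Psmb5. The ATPase ring ran from 38.9 TPM for Psmc6 to 122.2 TPM for Psmc1, and the lid from 34.66 TPM for Psmd14, its deubiquitinase, to 98 TPM for Psmd8.

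The chaperones of the base were lower, at 9.899 TPM for Psmd5, 11.75 TPM for Psmd9 and 12.6 TPM for Psmd10. The exon length used is the union of all annotated exons of a gene, so a gene with long extra exons, such as Psmd9 with 7248 bases, has its TPM understated. The ends of the order have the extremes of this length, 899 bases for Psmb5 and 7265 for Psmd1. In CPM, which is not per length, the group means ran from 65.4 to 83.6 for Psmb5 and from 83.3 to 89.1 for Psmd1, so the 6.853-fold span rests on the lengths used. The ranges of neighbours in the order mostly overlapped: Psmb5 covered 139.6 to 251 TPM and Psmb6 157.8 to 236 TPM over the 16 livers. Psmd1 covered 15.44 to 34.69 TPM, and its next neighbour upward, Psmd14, 20.04 to 42.48 TPM.

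**Figure D1:**
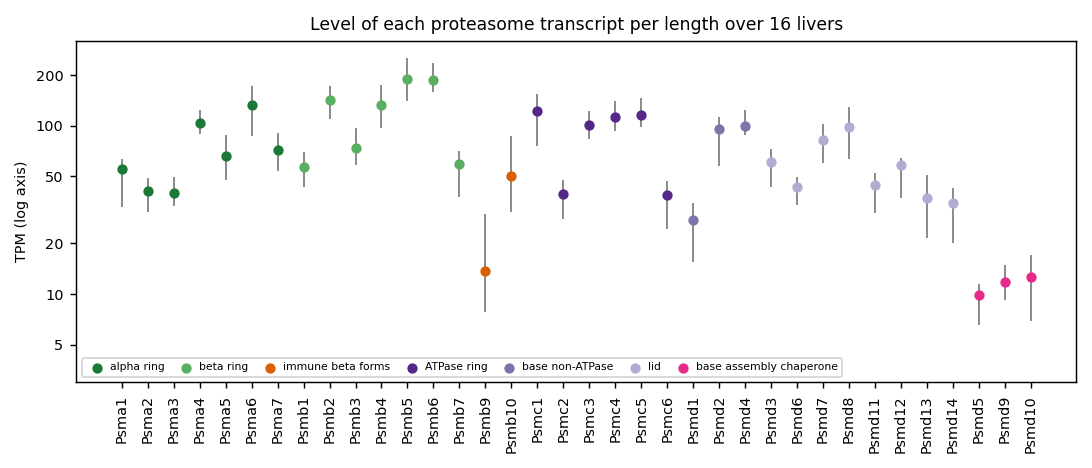
Level of each proteasome transcript per length. The vertical axis is TPM on a log axis, points are means over the 16 livers and lines run from the lowest to the highest liver; colours mark the parts of the complex. Psmb5 (189.6 TPM) and Psmb6 are at the top, and the 3 chaperones of the base (9.899 to 12.6 TPM) are below the ring and regulatory particle genes.

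The pooled within-group standard deviation on the log2 scale had a median of 0.139 over the 38 members and 0.247 over all genes tested. The members were not matched to other genes by level. Of the 17046 genes tested, 9809 had a mean of at least 5 CPM. These log2 levels add 0.5 CPM, which narrows the spread of genes at low levels. Psma8, with group means of 0.5773 to 0.8454 CPM, had a standard deviation of 0.459, and 1.07 without that addition. Psmb1, a structural subunit of the beta ring, had 0.0672, and 0.188% of the tested genes had a lower value. Psma7 had 0.0845 and Psma2 0.0899. The highest values among the expressed subunits were 0.411 for Psmb9 and 0.412 for Psmb10, the immune forms, followed by 0.255 for Psmd1. With this spread, the standard error of a log2 fold change with age was between 0.08 (Psmb1) and 0.15 (Psmb3) for the ring genes.

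**Figure D2:**
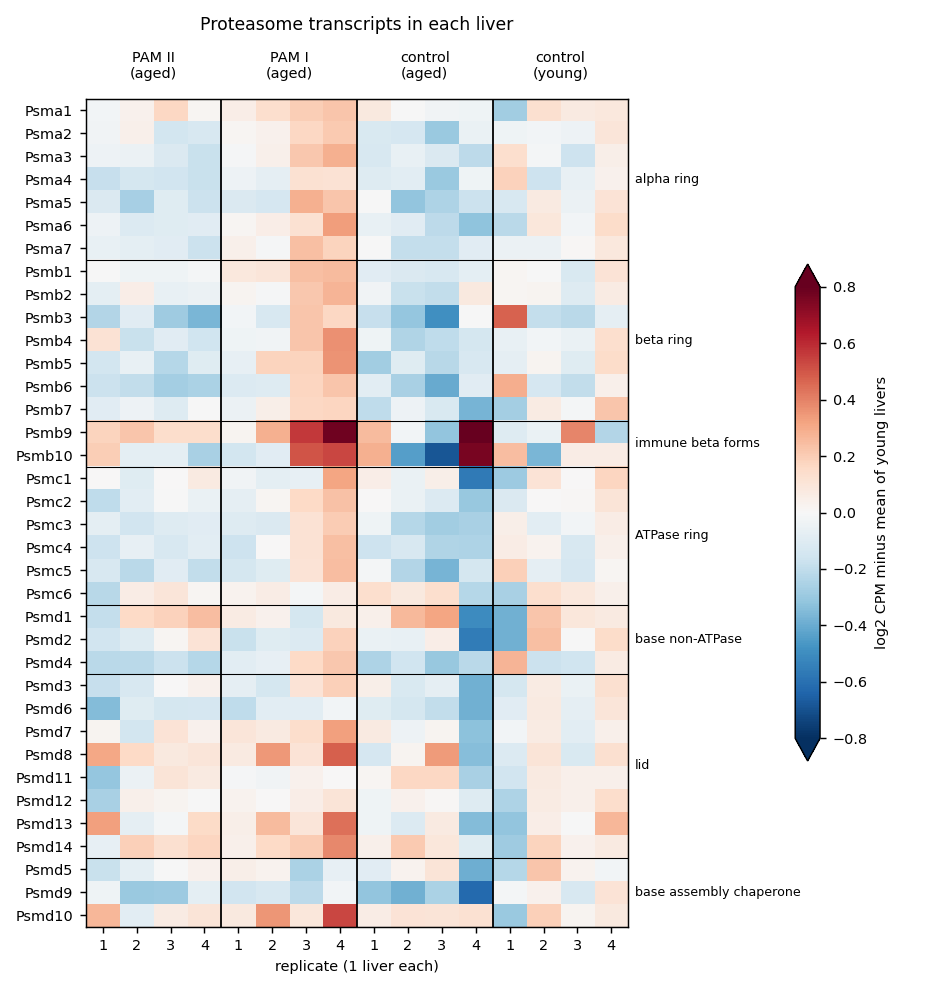
Each row is a proteasome gene and each column a liver; colour is log2 CPM minus the mean of the 4 young livers, and values beyond 0.8 in either direction take the end colour. PAM I replicates 3 and 4 are red across most rows, aged control 4 is blue across the regulatory particle rows, and the immune form Psmb9 is darkest red in aged control 4.

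The comparison of aged controls with young livers addresses age in mice that had no antibiotics. One member fell with age: Psmd9, a chaperone of the ATPase ring, which was lower by a log2 fold change of -0.39 ± 0.10 (SE; edgeR quasi-likelihood test with Benjamini-Hochberg adjustment, adjusted p = 0.0443). Its level was 32.7, 31.3, 34.3 and 26.4 CPM in aged controls, against 40.5, 41.8, 37.4 and 44.1 CPM in young livers. The 4 aged controls all lay below the 4 young livers, with aged control 4 the lowest. That is 1 of 38 members called lower, or 0 of 17 in the core and 0 of 17 in the regulatory particle, beside a background of 1.31% of all genes tested called lower; 0 members were called higher, beside 1.92% of all genes.

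The call of Psmd9 did not hold in every fit. It was lost without aged control 1, 2 or 4 or without young replicate 1, 2 or 4, with adjusted p between 0.0442 and 0.149 over the 8 fits that each left out 1 liver and a log2 fold change between -0.44 and -0.32. Transcripts of 12 skeletal muscle genes were found in part of the libraries, between 0.7891 and 14.27 summed CPM in aged controls and between 1.048 and 125.8 in young livers. With the muscle level as a covariate the log2 fold change of Psmd9 was -0.42 and its adjusted p 0.0753 (edgeR).

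Most of the other members had small negative values with age. By unadjusted p under 0.05, 4 members were lower (8.68% of all genes were) and 0 were higher (10.3% of all genes were), and the number of members with a negative log2 fold change was 30 of 38, beside 50.9% of all genes. The count of 4 was 1 under upper-quartile scaling, with no filter, with only the 8 libraries compared, and without aged control 3 or young replicate 4; it was 2 without aged control 4, and 8 in limma voom. The groups did not overlap for 4 members, which were lower in aged controls (4.44% of all genes): Psma2, Psmb5, Psmd6 and Psmd9. No member was higher without overlap (0 of 38, beside 4.83% of all genes). Genes of a liver share its library, so these counts are not independent tests. The median log2 fold change was -0.13 in the core particle and -0.11 in the regulatory particle, and -0.01 over all genes tested; under upper-quartile scaling, which moved the last to 0.04, they were -0.08 and -0.07.

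Within the core, the 7 alpha ring genes ran from -0.19 to -0.004 and the 7 beta ring genes from -0.27 to -0.08, none of them called. The largest negative value was that of Psmb3, a structural beta subunit: 68.0, 62.3, 54.9 and 77.0 CPM in aged controls, against 107.4, 67.8, 66.5 and 73.6 CPM in young livers. Young replicate 1 alone was far above the other livers for Psmb3, and the groups overlapped (log2 fold change -0.27 ± 0.15 SE, adjusted p = 0.357, edgeR). Without that liver the value was closer to 0, at the upper end of a range from -0.35 to -0.08 over the 8 fits that left out 1 liver.

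In the regulatory particle the largest negative value was that of Psmd4, the ubiquitin receptor of the base. It had 107.4, 114.0, 103.2 and 109.5 CPM in aged controls, against 154.0, 112.8, 113.8 and 133.1 CPM in young livers. The groups overlapped by a little, since aged control 2 was above young replicate 2 and above young replicate 3 (log2 fold change -0.24 ± 0.11 SE, adjusted p = 0.24, edgeR). Without young replicate 1, the highest young liver, the value was -0.15. The largest positive value was that of Psmd14, with 39.98, 45.0, 41.3 and 36.2 CPM in aged controls, against 31.8, 43.9, 39.8 and 40.8 CPM in young livers (log2 fold change 0.06 ± 0.11 SE, adjusted p = 0.834, edgeR). Its groups overlapped across most of their ranges, and without young replicate 1 the value was -0.03. The median of the regulatory particle depended on aged control 4: it was -0.03 without that liver and -0.11 with it, and -0.06 without young replicate 4.

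**Figure D3:**
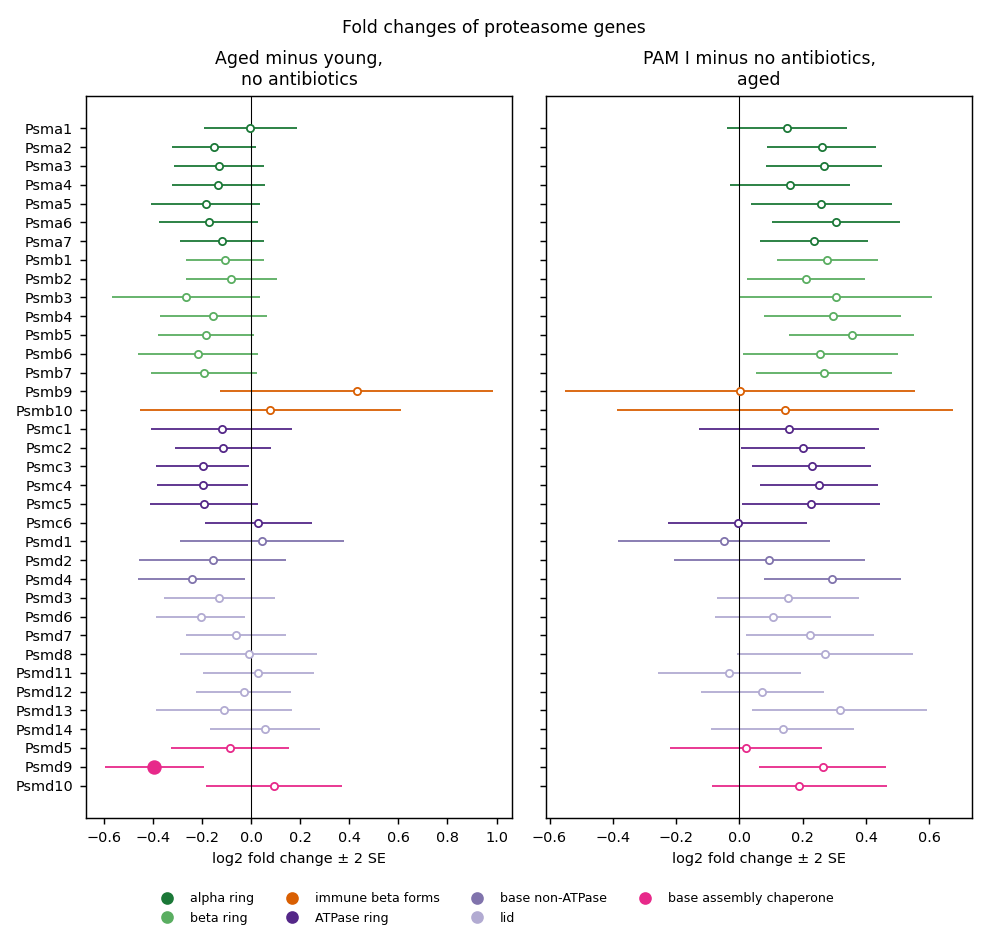
Log2 fold changes with bars of 2 standard errors on either side from the edgeR fit of 16 libraries, for aged controls over young livers (left) and PAM I over aged controls (right); genes run down the page in the order of the complex. The only filled point, adjusted p under 0.05, is Psmd9 at -0.39 on the left. On the right, 34 of 38 members, Psma8 and Psmc3ip among the 38 but not drawn, have positive values and no point is filled.

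The comparison of PAM I with aged controls sets the first antibiotic group against mice of the same age. The fit called 0 of 38 members and 0 of 17046 genes (edgeR, percentage called 0 in each direction), so no member is said to have risen. The values leaned one way all the same. The median log2 fold change was 0.26 in the core particle and 0.16 in the regulatory particle, and 0.02 over all genes tested. Positive values were found for 34 of 38 members, beside 52.4% of all genes, and negative values for 4, beside 47.6%. At an unadjusted p under 0.05, 16 members were higher, beside 3.71% of all genes, and 0 were lower, beside 5.69%. The groups did not overlap for 8 members, all higher in PAM I (3.07% of all genes): Psma2, Psma3, Psma6, Psmb1, Psmb4, Psmb5, Psmd4 and Psmd9. In the lower direction it was 0 of 38, beside 2.4% of all genes. The median of the regulatory particle was 0.06 without aged control 4, 0.08 without PAM I 4 and 0.06 in limma voom.

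Psmb5 had the smallest p. It had 71.0, 83.9, 84.1 and 95.5 CPM in PAM I, against 61.1, 69.3, 63.5 and 68.0 CPM in aged controls. Each PAM I liver was above each aged control, with replicate 4 the highest (log2 fold change 0.35 ± 0.10 SE, unadjusted p = 0.00242, adjusted p = 0.506, edgeR). Psmb1, the steadiest of the members, had 117.3, 118.2, 130.8 and 132.0 CPM in PAM I, against 103.7, 101.8, 101.0 and 104.5 CPM in aged controls. The groups did not overlap, and the gap between them was wider than the range of the aged controls (log2 fold change 0.28 ± 0.08 SE, unadjusted p = 0.0031, adjusted p = 0.506, edgeR). Psma2, an alpha ring subunit, had 65.6, 66.6, 73.0 and 75.1 CPM in PAM I, against 59.8, 59.2, 52.7 and 62.6 CPM in aged controls. These groups did not overlap either (log2 fold change 0.26 ± 0.09 SE, unadjusted p = 0.00832, adjusted p = 0.506, edgeR). DESeq2 called Psmb1 higher (log2 fold change 0.27, adjusted p = 0.0256) among 15 genes in all, and limma voom called 0.

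In the base, Psmd4 had a log2 fold change of 0.29 ± 0.11 SE and the ATPases Psmc3 and Psmc4 had 0.23 and 0.25. Psmc6, another ATPase of the same ring, was at -0.01 ± 0.11 SE, and the scaffold Psmd1 at -0.05 ± 0.17 SE. In the lid the values ran from -0.03 for Psmd11 to 0.32 for Psmd13. Psmd9, lower in aged controls than in young livers, had 36.8, 37.4, 35.3 and 40.2 CPM in PAM I, against 32.7, 31.3, 34.3 and 26.4 CPM in aged controls (log2 fold change 0.26 ± 0.10 SE, adjusted p = 0.506, edgeR). Without aged control 4 the value was 0.17. This comparison and that of age share the aged controls, so low aged controls move both.

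The PAM I livers were uneven. The mean log2 level of the 14 ring genes, relative to young livers, was -0.0148, 0.0066, 0.197 and 0.241 in PAM I, against -0.0882, -0.151, -0.225 and -0.118 in aged controls. PAM I replicates 3 and 4 were well above replicates 1 and 2, and the lowest PAM I liver was still above the highest aged control. Of 31 ring and regulatory particle genes, 26 were above the young mean in PAM I 3 and 30 in PAM I 4, while 13 were in PAM I 1 and 16 in PAM I 2. The count of 16 members at an unadjusted p under 0.05 was 3 without PAM I 4, 7 without PAM I 3, 8 without aged control 3, 9 without aged control 2 and 10 with only the 8 libraries compared. It was 18 in DESeq2, 19 without PAM I 1 and 20 under upper-quartile scaling. In the 8 fits that each left out 1 liver, 32 to 34 of 38 members stayed positive and the core median was between 0.19 and 0.28.

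A property of the whole libraries was also highest in PAM I 3 and 4, the balance of short against long genes among 9809 genes with a mean of at least 5 CPM. The median log2 deviation of genes in the shortest quartile of exon length minus that in the longest was 0.033, 0.0928, 0.341 and 0.461 in PAM I, against -0.106, -0.215, -0.329 and 0.135 in aged controls. PAM I 3 and 4 were the highest of the 16 livers on this measure, and aged control 4 was above both of the other PAM I livers. PAM II 1 had the third highest balance, 0.206, with ring genes at -0.0784. The other PAM II livers were lower on both, at -0.145 to -0.113 for the balance and -0.132 to -0.0797 for the ring genes. Aged control 4 had ring genes at -0.118. That was above aged controls 2 and 3 (-0.151 and -0.225), whose balances were the lowest of the group, and below aged control 1 (-0.0882). Of the 17 core genes, 10 belong to the shortest quartile and 0 to the longest, and of the 17 regulatory particle genes 6 belong to the shortest and 1 to the longest. With this balance as a covariate, added after the data were seen, the median of the core genes was 0.12, that of the regulatory particle 0.21, and 6 members had an unadjusted p under 0.05 in the higher direction.

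Leukocyte transcripts differed between PAM I livers in the same direction. The mean log2 CPM of 8 T and natural killer cell genes was 0.132, 0.764, 1.97 and 1.87 in PAM I, against 0.974, 0.105, -0.0598 and 2.11 in aged controls. PAM I 3 and 4 and aged control 4 were the highest of these 8 livers. The summed level of 8 general leukocyte genes covered 146.4 to 310 CPM in PAM I and 131 to 295 CPM in aged controls. The part of these cells in the values above was not tested.

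**Figure D4:**
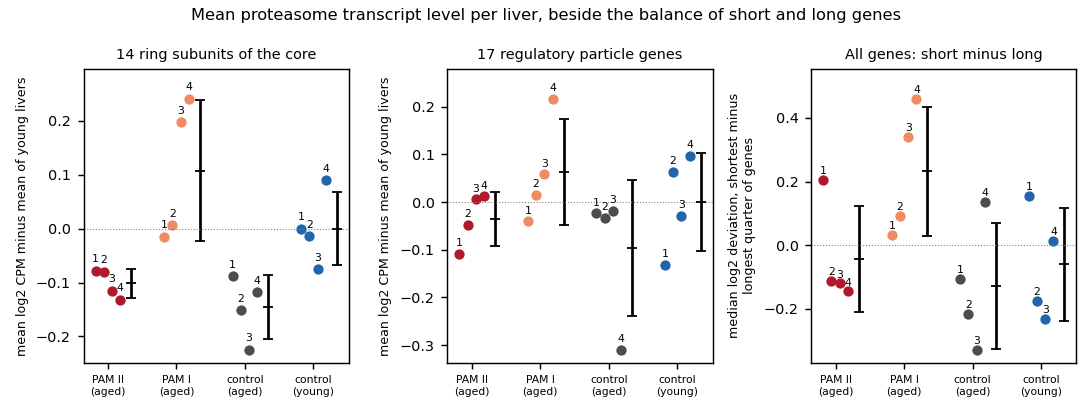
Mean log2 level per liver of the 14 ring genes (left) and of the 17 regulatory particle genes (middle), each relative to the mean of young livers, and the short-minus-long balance over all genes (right). Points are livers numbered by replicate, and bars give the mean and SD of 4 livers. PAM I 3 and 4 are highest in the left and right panels (0.197 and 0.241, 0.341 and 0.461), and aged control 4 is far below the rest in the middle panel at -0.31.

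In PAM II against aged controls, the fit called 0 of 38 members and 0 of 17046 genes (edgeR, percentage called 0; DESeq2 and limma voom called 0 genes as well). At an unadjusted p under 0.05, 1 member was higher, beside 1.23% of all genes, and 0 were lower, beside 1.5%. Positive values were found for 29 of 38 members, beside 51.4% of all genes, and negative values for 9, beside 48.6%. The median log2 fold change was 0.05 in the core, with 0.01 to 0.06 in the fits that left out 1 liver (0.01 without PAM II 1). It was 0.05 in the regulatory particle, with -0.02 to 0.08 in those fits (-0.02 without aged control 4). The 12 skeletal muscle genes had a median log2 fold change of 3.72 in PAM II over aged controls, with 0 called and 8 at an unadjusted p under 0.05, and 2.62 in PAM I over aged controls, with 0 called and 0 at an unadjusted p under 0.05. With the muscle level as a covariate the medians of PAM II over aged controls were 0.10 in the core and 0.09 in the regulatory particle. The groups did not overlap for 1 member, Psmb1, which was higher in PAM II (0.81% of all genes), with 110.1, 107.8, 108.1 and 109.4 CPM in PAM II, against 103.7, 101.8, 101.0 and 104.5 CPM in aged controls. The log2 fold change of Psmb1 was 0.08 ± 0.08 SE (adjusted p = 1, edgeR). No member was lower without overlap (0 of 38, beside 1.29% of all genes).

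The 3 members of smallest p were Psmd9 and the lid subunits Psmd13 and Psmd8. Psmd9 had 39.98, 33.2, 33.3 and 38.8 CPM in PAM II, against 32.7, 31.3, 34.3 and 26.4 CPM in aged controls, with an overlap (log2 fold change 0.22 ± 0.10 SE, unadjusted p = 0.0434, adjusted p = 1, edgeR). Psmd13 and Psmd8 had log2 fold changes of 0.20 ± 0.14 SE and 0.17 ± 0.14 SE. Their intervals of 2 standard errors on either side ran from -0.07 to 0.48 and from -0.11 to 0.45, so changes of either sign fall inside them. Without aged control 4 the values were 0.14 for Psmd9, 0.12 for Psmd13 and 0.07 for Psmd8. Psmd13 had 0.12 without PAM II 1, and Psmd8 had 0.30 without aged control 3.

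PAM II against PAM I compares the antibiotic groups directly. The fit called 0 of 38 members and 0 of 17046 genes (edgeR, percentage called 0; DESeq2 and limma voom called 0 genes as well). Negative values were found for 34 of 38 members, beside 49.1% of all genes, and the median log2 fold change was -0.22 in the core and -0.10 in the regulatory particle. At an unadjusted p under 0.05, 8 members were lower, beside 2.29% of all genes, and 0 were higher, beside 2.27%. The groups did not overlap for 7 members, all lower in PAM II (2.9% of all genes): Psma3, Psma4, Psma6, Psma7, Psmb1, Psmb6 and Psmd4. In the higher direction it was 0 of 38, beside 1.76% of all genes. The median of the regulatory particle was -0.03 without PAM I 4 and -0.04 without PAM II 1. The comparison shares the PAM I livers with PAM I against aged controls, so the high PAM I 3 and 4 enter both.

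Psmb5 again had the smallest p, with 67.1, 71.2, 63.3 and 69.4 CPM in PAM II, against 71.0, 83.9, 84.1 and 95.5 CPM in PAM I. PAM II 2 was just above PAM I 1, so the groups overlapped (log2 fold change -0.30 ± 0.10 SE, unadjusted p = 0.00701, adjusted p = 0.88, edgeR). Psma7 had 91.7, 90.4, 89.5 and 84.7 CPM in PAM II, against 98.3, 94.7, 112.8 and 108.2 CPM in PAM I. Each PAM II liver was lower than each PAM I liver (log2 fold change -0.22 ± 0.08 SE, unadjusted p = 0.0214, adjusted p = 0.88, edgeR). Psma3 had 65.2, 64.7, 61.8 and 59.2 CPM in PAM II, against 66.7, 68.8, 77.8 and 81.5 CPM in PAM I (log2 fold change -0.23 ± 0.09 SE, unadjusted p = 0.0219, adjusted p = 0.88, edgeR). The count of 8 members was 1 without PAM I 3, without PAM I 4 or without PAM II 4, 2 without PAM II 3, 5 without PAM II 1 or without PAM II 2, and 4 with no filter. It was 10 under upper-quartile scaling, in DESeq2 and without PAM I 1, and 12 in limma voom. With the short-minus-long balance as a covariate the median of the core genes was -0.08.

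Of the catalytic subunits of the standard core, Psmb6 and Psmb7 varied less within PAM II than within any other group. For Psmb5 the SD was 3.43 CPM in PAM II and 3.83 CPM in aged controls, which are close. Psmb6, the caspase-like subunit, had 141.7, 139.1, 132.2 and 133.8 CPM in PAM II and 147.7, 148.4, 179.7 and 186.4 CPM in PAM I. It had 150.8, 133.3, 120.7 and 149.8 CPM in aged controls and 195.2, 145.4, 139.4 and 164.1 CPM in young livers. PAM II livers lay within 10 CPM of each other, while the other groups each spread over 30 CPM or more.

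Psmb7, the trypsin-like subunit, had 83.0, 86.1, 82.4 and 88.2 CPM in PAM II and 85.6, 91.2, 99.1 and 99.7 CPM in PAM I. It had 76.9, 85.9, 81.3 and 68.1 CPM in aged controls and 73.0, 92.5, 87.6 and 103.2 CPM in young livers. The groups overlapped in each of the 4 comparisons. The lowest PAM I liver was just under the highest aged control. No contrast called Psmb6 or Psmb7.

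The immune forms were highest in aged control 4, where the ring genes were not. Within PAM I they rose from replicate 1 to replicate 4, as did the mean of the ring genes. Psmb9 had 19.7, 20.3, 19.2 and 19.2 CPM in PAM II and 17.7, 21.2, 26.0 and 30.2 CPM in PAM I. It had 20.8, 17.1, 13.8 and 43.3 CPM in aged controls and 16.1, 16.7, 22.9 and 14.7 CPM in young livers. Aged control 4 was the highest liver of all 16, and the other 3 aged controls lay within the range of the young livers or below it. The log2 fold change of aged controls over young livers was 0.43 ± 0.28 SE (adjusted p = 0.424, edgeR), and it was -0.03 without aged control 4.

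Psmb10 had 39.6, 32.7, 32.8 and 28.8 CPM in PAM II and 31.1, 32.4, 49.3 and 50.3 CPM in PAM I. It had 42.3, 25.4, 21.3 and 58.8 CPM in aged controls and 41.1, 26.7, 36.1 and 36.0 CPM in young livers. Aged control 4 was again the highest, followed by PAM I 4 and PAM I 3. Its log2 fold change with age was 0.08 ± 0.27 SE (adjusted p = 0.909, edgeR), and -0.23 without aged control 4.

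Relative to the standard subunit it replaces, Psmb9 made up 12.9% of the summed TPM of Psmb9 and Psmb6 in aged control 4 and between 4.05% and 7.75% in the other 15 livers. Psmb10 made up 63.4% of the summed TPM of Psmb10 and Psmb7 in aged control 4, and between 34.5% and 53% in the others. These shares rest on the exon lengths used, 3660 bases for Psmb9, 1872 for Psmb6, 1705 for Psmb10 and 3421 for Psmb7. In CPM, aged control 4 had 43.3 for Psmb9 and 149.8 for Psmb6, and 58.8 for Psmb10 and 68.1 for Psmb7. The shares therefore compare livers and do not show which form was more abundant. Aged control 4 was also highest for Tap1, the peptide transporter of antigen presentation, at 67.65 CPM, with between 29.13 and 48.35 CPM in the others. Tap1 lies beside Psmb9 on the opposite strand, and their exons overlap; the counts were made by strand, with 15171 fragments on Psmb9 and 27627 on Tap1 in all.

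**Figure D5:**
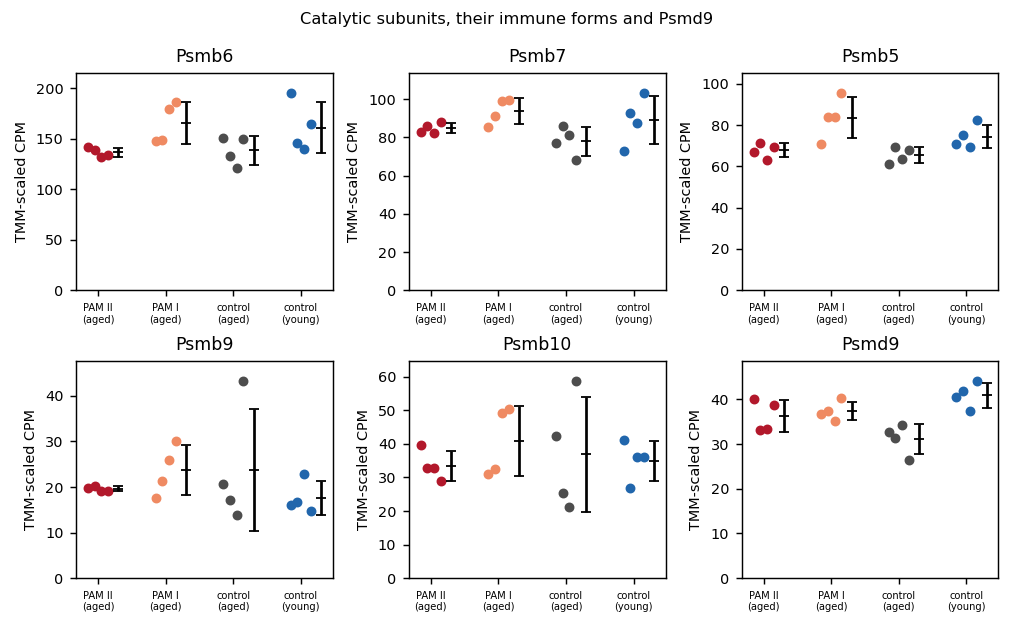
TMM-scaled CPM in each liver for the catalytic subunits Psmb6, Psmb7 and Psmb5, the immune forms Psmb9 and Psmb10, and the base chaperone Psmd9; points are livers, bars the mean and SD of 4. Aged control 4 is the highest point for Psmb9 (43.3 CPM) and Psmb10 (58.8 CPM) and the lowest for Psmd9 (26.4 CPM).

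Aged control 4 had low regulatory particle transcripts together with high immune forms. Its mean log2 level of the 17 regulatory particle genes was -0.31 relative to young livers, with 0 of the 17 above the young mean. The values of the other aged controls were -0.0236, -0.0333 and -0.0188. Its ring genes were at -0.118, within the range of the other aged controls. Psmc1, the regulatory particle gene of highest TPM, had 101.5, 94.8, 101.9 and 106.6 CPM in PAM II and 99.4, 96.3, 97.1 and 126.5 CPM in PAM I. It had 105.4, 97.7, 104.7 and 68.3 CPM in aged controls and 82.9, 109.6, 101.9 and 114.5 CPM in young livers. Aged control 4 was the lowest of the 16, and PAM I 4 the highest.

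Psmd1, the one of lowest TPM, had 72.3, 92.1, 93.9 and 98.2 CPM in PAM II and 86.6, 84.6, 74.96 and 87.1 CPM in PAM I. It had 84.9, 98.9, 103.0 and 58.2 CPM in aged controls and 63.1, 96.4, 88.0 and 86.9 CPM in young livers. Aged control 4 was again the lowest.

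The ring genes minus the regulatory particle genes came to 0.192 in aged control 4, 0.139 in PAM I 3 and 0.131 in young replicate 1, the highest of the 16 livers. In young replicate 1 the ring genes were at -0.000315 and the regulatory particle genes at -0.132, and it was the lowest of the young livers for both Psmd1 and Psmc1. The mitochondrial share was 9.01% in aged control 4, 6.03% in PAM I 3 and 13.9% in young replicate 1; the first and the last were the highest of the 16 libraries. The short-minus-long balance was 0.135 in aged control 4, 0.341 in PAM I 3 and 0.155 in young replicate 1. It was -0.174, -0.232 and 0.0138 in the other young livers. PAM I 4, with the highest balance at 0.461, had a ring minus regulatory difference of 0.0248. The part of RNA quality or of gene length in this split was not tested. With aged control 4 and young replicate 1 left out, the median log2 fold change of aged controls over young livers was -0.15 in the core and -0.09 in the regulatory particle.

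The remaining genes of the rule were at very low levels, and neither was called in any contrast. Psma8, the testis form of an alpha subunit, ranged from 0.6077 to 1.22 CPM in PAM II, 0.3636 to 1.049 CPM in PAM I, 0.4801 to 1.009 CPM in aged controls and 0.06104 to 1.368 CPM in young livers. Psmc3ip ranged from 0.1519 to 0.4813 CPM in PAM II, 0.2517 to 0.8199 CPM in PAM I, 0.09145 to 0.5345 CPM in aged controls and 0.1997 to 0.641 CPM in young livers. Its exons overlap those of Mlx on the opposite strand, which has 22401 fragments in all beside 289 for Psmc3ip.

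The rest of the ubiquitin and proteasome pathway was read from lists chosen by function. Of the remaining subunits of the regulatory particle, Sem1 and Adrm1, 0 of 2 were called in any contrast; with PAM I over aged controls their log2 fold changes were 0.36 ± 0.17 SE and 0.21 ± 0.10 SE. Of the 5 chaperones that assemble the core (Pomp and the Psmg genes), 0 were called. Their median was -0.16 with age, with 4 of 5 negative, and 0.32 for PAM I over aged controls, with 5 of 5 positive, Pomp at 0.32 ± 0.11 SE and Psmg3 at 0.33 ± 0.14 SE. For PAM II over aged controls their median was 0.003, and for PAM II over PAM I -0.22 with 5 of 5 negative. The medians of the 17 core particle genes in the first, second and last of these contrasts were -0.13, 0.26 and -0.22.

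The activators and the inhibitor of the core (Psme1 to Psme4 and Psmf1) had 0 of 5 called, with medians of -0.10 with age and 0.04 for PAM I over aged controls. Of 9 genes of transcription and its control, 0 were called. Nfe2l1 had a log2 fold change of 0.35 ± 0.14 SE with age (adjusted p = 0.205, edgeR) and -0.06 ± 0.14 SE for PAM I over aged controls. The latter value is smaller than its standard error, and the activity of the Nfe2l1 protein was not measured. The 6 ubiquitin and ubiquitin-activating genes, the 8 deubiquitinases and shuttles, and the 8 genes of the unfolding ATPase Vcp and its cofactors had 0 called in each of the 4 contrasts. The smallest adjusted p among them with age was that of Ubxn1, a Vcp cofactor, at -0.30 ± 0.11 SE (adjusted p = 0.138, edgeR).

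Of 2 muscle ubiquitin ligases, Fbxo32 had a log2 fold change of -0.34 ± 0.20 SE with age and was not called, and Trim63 did not pass the filter. Of 12 interferon-gamma response genes, 1 rose with age, H2-D1, a class I antigen-presenting molecule (log2 fold change 0.59 ± 0.15 SE, adjusted p = 0.0419, edgeR), and 12 of 12 were positive with a median of 0.36. Aged control 4 stood apart on this list: its mean log2 CPM was 7.01, against 6.2, 6.02 and 5.84 in the other aged controls, and 5.57, 5.66, 6.21 and 5.53 in young livers. Without aged control 4 the median was 0.14 with 9 of 12 positive, and the call of H2-D1 was lost (adjusted p = 0.112, edgeR). H2-D1 was called in 3 of the 8 fits that left out 1 liver and lost without aged control 1 or 4 or young replicate 1, 3 or 4. Of the 12, 0 were called in the antibiotic contrasts. Leukocyte genes had a median of 1.36 with age, with 0 of 8 called and 6 at an unadjusted p under 0.05. The 8 hepatocyte genes had a median of -0.38 with age, with 7 of 8 negative and 4 lower at an unadjusted p under 0.05. Of these 8, 1 was called lower with age: Serpina1c, a secreted protease inhibitor (log2 fold change -0.98 ± 0.21 SE, adjusted p = 0.0202, edgeR). It was called in 5 of the 8 fits that left out 1 liver and lost without aged control 4 or young replicate 1 or 4. The part of cell make-up in the proteasome values was not tested.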

How the data were processed

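RNA from 16 mouse livers was analysed from deposited raw fragment counts per gene, 1 file per liver, with no normalization. The authors' tools were Trimmomatic 0.38 for trimming, HISAT2 2.1.0 for alignment and featureCounts 1.5.0-p2 for counting, with build mm10, per the submitters' processing notes. The file headers record Ensembl release 99, summing of exons to genes, counting of read pairs as fragments, and strand option 1. Gene symbols came from GENCODE M21 for 55230 of 55471 identifiers; 241 had none.

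Counts were scaled by the trimmed mean of M-values (TMM), filtered with filterByExpr and fitted with edgeR 4.0.16 (glmQLFit, glmQLFTest, R 4.3.3) in 1 fit of 16 libraries (17046 genes; biological coefficient of variation 27.3%). P-values were adjusted over all genes by Benjamini-Hochberg, and a call is an adjusted p under 0.05. Log2 levels add 0.5 CPM. Level differences between genes use TPM computed from the counts and summed exon lengths. Other settings tried were upper-quartile and RLE scaling, no filter, a stricter filter, DESeq2 1.42.0, limma 3.58.1 (voom with sample weights), only the 8 libraries compared, a muscle covariate, leaving out each liver, and leaving out aged control 4 and young 1 together; a gene length covariate was added after seeing the data. The fit was tested on simulated data.

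The members, lists and rules were chosen with earlier results of these data known. Values in every library are given for catalytic subunits, called members, the largest positive and negative value of each particle with age, the highest and lowest TPM of each particle, and the 3 members of smallest p where a contrast called none. Counts per library (36968993 to 52090914 fragments) limit precision for Psma8 and Psmc3ip. Named pseudogenes of the members held at most 161 fragments in all (Psmb6-ps2), beside 106428 for Psmb6. No 2 libraries were copies, the closest pair differing by a root mean square of 0.294 in log2 CPM.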

Additional observations from a re-analysis of the deposited data

Results flagged for a closer look

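Of 84 groups of 4 livers checked, 3 held a liver whose gap to its nearest neighbour, as a share of the group's range, was past the 95% limit of Dixon's test. Chance flags about 1 in 20 groups. Psma2, an alpha ring subunit, stood at 69.6 CPM in young replicate 4, with the other young livers between 63.11 and 63.85 CPM. Psmc1, an ATPase of the base, stood at 126.5 CPM in PAM I replicate 4, with the other PAM I livers between 96.26 and 99.37 CPM. The mean log2 level of the 17 regulatory particle genes was -0.31 in aged control 4, with the other aged controls between -0.0333 and -0.0188.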

How the results depend on the processing

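No paired analysis was possible because the labels number no replicates; the numbers 1 to 4 used here follow sample order within each group and pair no livers. The 1 member called lower with age, Psmd9, became 0 under upper-quartile scaling, no filter, only the 8 libraries compared, the muscle covariate, and without aged control 4 and young 1 together, and 0 to 1 when leaving out 1 liver each. Its adjusted p was 0.0582, 0.126, 0.167, 0.0753 and 0.143 in these 5 settings, and it was called under RLE scaling, the stricter filter, DESeq2, voom and the gene length covariate (0.0289). DESeq2 called 1 member higher in PAM I over aged controls. With the gene length covariate the core median was 0.12 for PAM I over aged controls and -0.0798 for PAM II over PAM I. Reversed signs with age were found for Psmb10 (main value 0.08; voom -0.19, muscle covariate -0.0798, both livers left out -0.15, leaving out 1 liver -0.23 to 0.27), Psmb9 (both livers left out -0.0708, leaving out 1 liver -0.026 to 0.62) and Psmd14 (leaving out 1 liver -0.0331 to 0.12). None of these 3 was called. Over all settings, counts of calls and particle medians stayed within 1.5 times or within 1 SD in 270 cases and moved further in 14. The named genes kept their direction and side of the threshold in 300 cases. Signs were reversed in 9, 11 were no longer past the threshold and 1 was newly past it. All 11 were Psmd9, the only member called in the main fit, and the 14 include these losses. For the other named genes, keeping their side of the threshold meant staying uncalled. The regulatory particle median of PAM II over aged controls changed sign within its spread without aged control 4 (-0.018). The cause was not tested. Very low counts limit Psma8 and Psmc3ip.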
